A study of Homo sapiens with 12 samples.

Results

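Silencing of Oct4 and silencing of Rb1 were compared directly in OVCAR-3 cells, an established human line of high-grade serous ovarian carcinoma. The comparison used the 3 arrays of cells that received Oct4 siRNA (siOct4, against the gene POU5F1) and the 3 arrays of cells that received Rb1 siRNA (siRb1, against RB1), which is 6 of the 12 arrays of the series. All 6 samples were total RNA taken 72 hours after transfection with Lipofectamine RNAiMAX, so the transfection itself and the culture were common to both groups. The other arrays, from cells given control siRNA or siRNA against Ccnf and Nipp1 together, entered neither the normalisation nor the test whose values are given. The samples are labelled as biological replicates, and separate cultures are not stated, so p-values measure the spread between these samples, which may be technical. No siRNA sequence is given in the sources used. The title of the series ties OCT4 to the mitotic spindle and to the RB tumour suppressor pathway, and the direct contrast asks where the 2 knockdowns left the transcriptome in different states.

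OCT4 is a POU-domain transcription factor of pluripotent cells and the germ line that binds the octamer element and is silent in most adult tissues. The retinoblastoma protein RB, with its relatives p107 (RBL1) and p130 (RBL2), binds E2F transcription factors and holds back the genes for S phase until cyclin-dependent kinases phosphorylate it. Genes for mitosis form a later wave, driven through CHR elements in their promoters by the MuvB complex with B-MYB and FOXM1. These promoters often hold CCAAT boxes as well.

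Illumina HT-12 bead arrays measured 47322 probes, and 17090 of them passed the filter, which asked for detection at p under 0.01 by 3 or more of the 6 arrays. They represented 10326 genes, each read by its brightest probe that passed. Between 16403 and 17351 probes were detected per array. Correlations between arrays of the same group lay between 0.980 and 0.989 over 6 pairs, above the 0.943 to 0.964 of the 9 pairs across groups. On the first principal component, which held 66.5% of the variance, the siRb1 arrays scored 36.7, 39.1 and 39.2. The siOct4 arrays scored -25.7, -46.8 and -42.6, so that siOct4 replicate 1 stood nearest to the other group. It was the siOct4 array closest to the siRb1 mean for 1606 of the 2774 genes called below (57.9%). Counts without it are therefore given for all genes and for some of the lists.

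The cells were checked against 20 markers of serous ovarian carcinoma. PAX8, SOX17, EPCAM, FOLR1 and CD24 were detected on all 6 arrays, with PAX8 at a mean log2 signal of 12.31 in siOct4 and 11.96 in siRb1. WT1, KRT8, WFDC2, ESR1 and EMX2 were undetected on all 6 arrays. Among 9 fibroblast markers 7 were undetected on all 6 arrays, as were 6 of the 8 leukocyte markers with a probe and 5 of 7 endothelial markers. In RNA from whole cultures, fewer cells of a kind and less RNA per cell cannot be told apart.

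The targeted genes separated the groups as their labels state. The main probe of POU5F1 gave normalised log2 signals of 5.88, 5.06 and 4.98 on the siOct4 arrays, none of them detected, against 11.26, 11.15 and 11.60 on the siRb1 arrays. The log2 difference, siOct4 minus siRb1, was -6.03 ± 0.25 (SE, n = 3 and 3; limma adjusted p = 5.22e-05), and POU5F1 was at least 26.8-fold lower in siOct4. Such a bound replaces the fold for any probe that no array of the lower group detected. It sets the higher group's mean against a mean over the lower arrays. Each lower array gives the probe's own signal or the array's lowest detected signal, whichever is larger. A second probe, designed on another RefSeq transcript of POU5F1, read 7.51, 7.84 and 7.38 in siOct4 and 7.04, 7.20 and 7.02 in siRb1. Its difference of 0.49 (95% interval 0.13 to 0.85; adjusted p = 0.0539) had the opposite sign and missed the threshold.

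RB1 read 7.46, 6.83 and 7.18 in siOct4 and 6.11, 5.67 and 5.82 in siRb1, where it was undetected on all 3 arrays. RB1 was at least 1.45-fold higher in siOct4 (fitted log2 difference 1.29 ± 0.20, adjusted p = 0.00334). For each target the arrays of the groups did not overlap, and the exact two-sided permutation test gave p = 0.1, the smallest that 3 against 3 arrays allow. After normalising all 12 arrays together, the control siRNA arrays read 10.47 to 10.66 for POU5F1 and 7.33 to 8.11 for RB1.

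In all, 2774 of the 10326 genes tested (26.9%) differed at an adjusted p under 0.05. Of these, 1384 (13.4% of genes tested) were higher in siOct4 and 1390 (13.5%) were lower, with median log2 differences of 0.77 and -0.80. A difference of at least 2-fold was met by 845 genes (8.18%), 414 higher and 431 lower. Arrays of the groups did not overlap for 4798 genes (46.5%), with siOct4 all above for 23.4% and all below for 23.1%. Over all genes tested the median difference was 0.0002, a value near 0 that the normalisation itself sets by making the quantiles of the arrays equal. The count was 2883 genes without siOct4 replicate 1. Leaving out siOct4 replicate 2 gave 1782 genes, leaving out siRb1 replicate 1 gave 1843, and leaving out siRb1 replicate 3 gave 1653. Below, the share of genes called in each direction is the background against which a list of genes is read. The lists were chosen with earlier results of these data known. A gene detected in only 1 group can pass the filter, so a list can hold genes that entered through their higher group. Where a list has 0 members called in a direction, at most 2 of its tested members lay in that direction at an unadjusted p under 0.05: 2 interferon genes and 2 autophagy genes lower, 1 gene in each of 5 lists (chromosomal passenger and spindle genes higher; squamous, hypoxia and protein phosphatase 1 genes lower), and 0 in the rest.

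**Figure D1:**
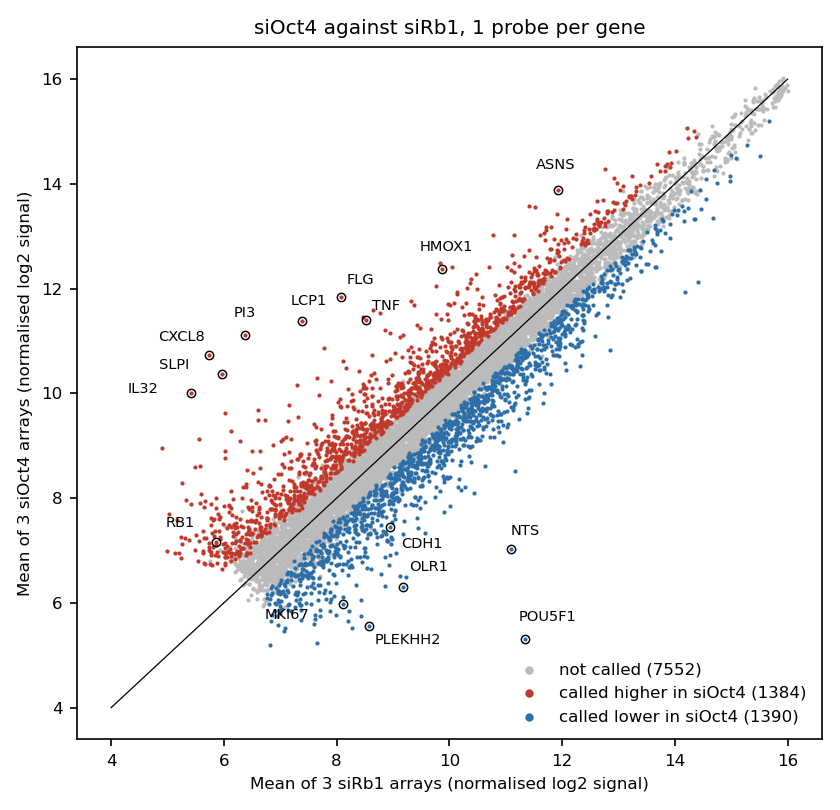
Mean normalised log2 signal of the 3 siOct4 arrays (vertical axis) against that of the 3 siRb1 arrays (horizontal axis) for the 10326 genes tested. Red points are the 1384 genes called higher in siOct4, blue points the 1390 called lower and grey points the others, the diagonal marks equal signals, and POU5F1 is the point farthest below it.

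The 12 largest differences in each direction are described among called genes whose groups did not overlap. Upward, CXCL8, the neutrophil chemokine interleukin-8, read 9.04, 12.30 and 10.89 in siOct4 and 6.02, 5.48 and 5.70 in siRb1, at least 17.5-fold higher (adjusted p = 0.00210). Replicate 1 was the lowest of the siOct4 arrays and still lay above all siRb1 arrays. IL32, a proinflammatory cytokine, read 9.05, 10.84 and 10.14 against 5.68, 5.34 and 5.24, at least 10.5-fold higher (adjusted p = 0.000470). A second probe of CXCL8 was also called higher, by 2.93 on the fitted log2 scale. So was a second probe of IL32 (adjusted p = 0.00275), which no siRb1 array detected.

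SLPI, an inhibitor of leukocyte proteases, was at least 13.4-fold higher in siOct4 (adjusted p = 0.00137). PI3, the elastase inhibitor elafin, was higher by 4.73 ± 0.55 (adjusted p = 0.00124) and was detected on 1 of the 3 siRb1 arrays. FLG, the filament-aggregating protein of the outer epidermis, read 11.47, 11.99 and 12.07 in siOct4 and 8.28, 7.69 and 8.24 in siRb1, a difference of 3.77 ± 0.22 (adjusted p = 0.000180). These 3 genes were among the 12 largest upward differences. So were LCP1, an actin-bundling protein (4.01 ± 0.27, adjusted p = 0.000271), the interferon-induced GTPase gene GBP2 (at least 8.08-fold) and PDK4, a kinase that inhibits pyruvate dehydrogenase (at least 5.74-fold). HBE1, the embryonic globin chain, was at least 5.08-fold higher, CAPN14, a calpain of squamous epithelium, was higher by 3.16, and the acute-phase gene SAA1 was at least 3.95-fold higher. SAA1 has a near-identical copy, SAA2, and FAM25A (3.10 higher) belongs to a set of near-identical genes, so their probes may not tell the copies apart.

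Downward, POU5F1 itself stood first. NTS, which encodes the peptide neurotensin, read 7.49, 5.96 and 7.66 in siOct4 and 10.80, 11.04 and 11.44 in siRb1, lower by 4.06 ± 0.41 (adjusted p = 0.000738). GPC4, a cell-surface heparan sulphate proteoglycan, read 8.50, 8.48 and 8.59 against 10.62, 11.52 and 11.37, lower by 2.65 ± 0.23 (adjusted p = 0.000481). The oxidised lipoprotein receptor gene OLR1 (-2.87), TMSB15A, a thymosin that binds actin (-2.74), and SLC16A10, an aromatic amino acid transporter (-2.55), were each detected on 1 siOct4 array. Bounds applied to the sodium-calcium exchanger gene SLC8A1 (at least 5.80-fold lower), PLEKHH2 (at least 3.93-fold), the mitochondrial carbonic anhydrase gene CA5B (at least 3.57-fold), the transcription factor gene TCF4 (at least 3.21-fold), the protease gene PAPPA (at least 3.04-fold) and SHISA3 (at least 2.07-fold). All of these genes were called lower, with adjusted p between 5.22e-05 (POU5F1) and 0.00429 (SLC16A10).

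**Figure D2:**
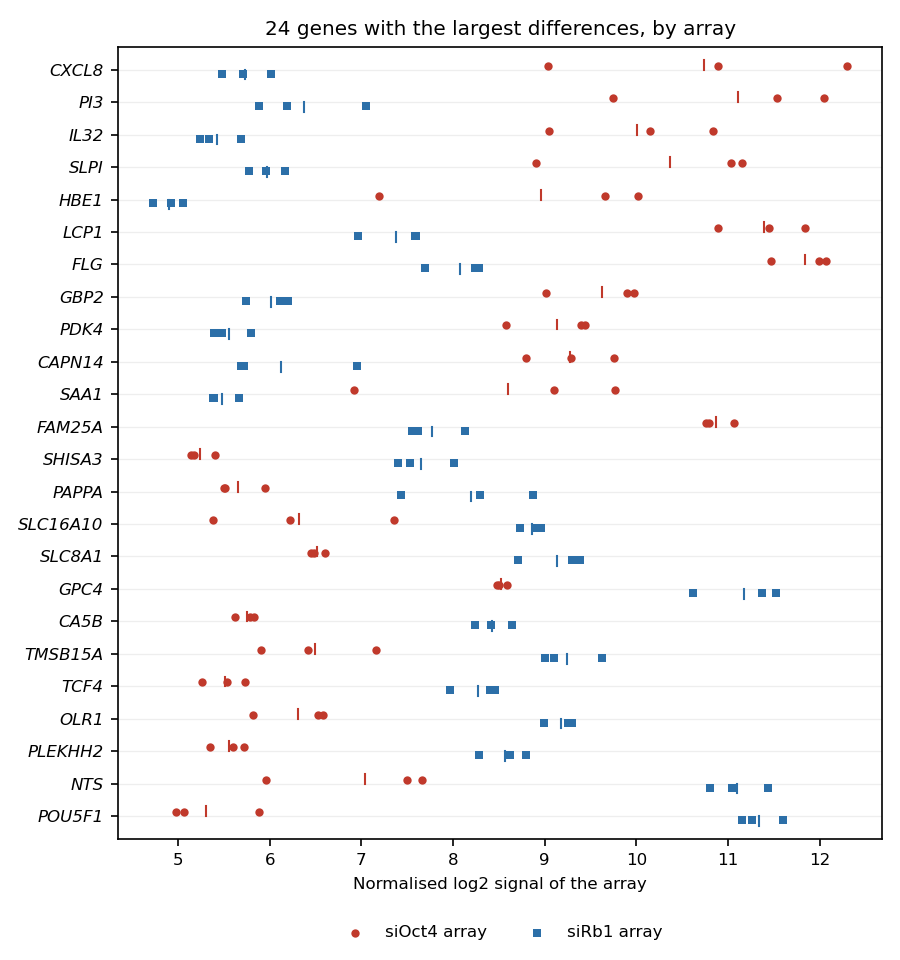
Normalised log2 signal on each array for the 12 genes with the largest fitted differences in each direction, chosen among called genes whose groups did not overlap. Red circles are siOct4 arrays, blue squares siRb1 arrays and vertical ticks the means of 3 arrays, and the values of FLG lie between 7.69 and 12.07.

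The control siRNA arrays, which entered the fit only in an alternative that modelled all 12 arrays, were used to place the differences. After normalising all 12 arrays together, the control mean lay nearer to siRb1 than to siOct4 for 2323 of the 2774 genes called (83.7%) and for 7066 of all 10326 genes tested (68.4%). Among genes called with a difference of at least 2-fold it lay nearer to siRb1 for 757 of 845 (89.6%). The control mean lay between the 2 knockdown means for 1683 of the genes called, 550 of these 845 and 4241 of all genes tested. Of the 24 largest differences, 20 had control nearer to siRb1. The other 4 were TCF4, TMSB15A, PAPPA and SHISA3, with control at 6.62, 7.40, 5.79 and 5.95 and siRb1 higher at 8.28, 9.25, 8.20 and 7.64. These positions are a description, since the comparisons of each knockdown with control share the control arrays.

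Genes of the G1/S transition that E2F factors drive were lower in siOct4. Of 37 tested members, 32 were called lower and 0 higher, with a median log2 difference of -1.01, against 13.5% called lower and a median of 0.0002 over all genes. All 37 had fitted differences below 0, and no alternative fit called a member higher. GINS2, a subunit of the GINS complex of the replicative helicase, read 11.03, 10.19 and 10.34 in siOct4 and 12.15, 12.41 and 12.39 in siRb1, a difference of -1.79 ± 0.22 (adjusted p = 0.00151). CHAF1B, a subunit of the histone chaperone CAF-1, was lower by 2.01 ± 0.25 (adjusted p = 0.00164), NASP, another histone chaperone, by 1.62 and POLA2, a subunit of DNA polymerase alpha, by 1.49. CDC6, which loads the MCM helicase, was at least 1.82-fold lower. ORC1, LIG1, RRM2, HELLS and SLBP were not called, with differences from -0.991 to -0.30. For 34 of the 37 genes the siOct4 arrays all lay below the siRb1 arrays, against 23.1% of all genes tested. Without siOct4 replicate 1, which lay nearest to siRb1 for 29 of the 32 called genes, 36 members were called lower. For 32 of the 32 called genes the control mean lay nearer to siRb1. It lay between the 2 knockdown means for 14 of them and above both for the others.

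Replication fork genes, a list that shares members with the E2F list, gave 29 of 42 lower and 0 higher (median -0.87). Leaving out siRb1 replicate 3 gave 1 higher. POLE2, a subunit of DNA polymerase epsilon, was lower by 1.39 (adjusted p = 0.00129). The origin recognition genes ORC2, ORC3, ORC4, ORC5 and ORC6 were not called, with differences between -0.34 and 0.34. Genes of homologous recombination and the Fanconi pathway gave 14 of 18 lower and 0 higher (median -1.18). BRCA1 read 7.59, 7.70 and 7.53 in siOct4 and 9.0, 9.05 and 9.06 in siRb1, a difference of -1.43 ± 0.12 (adjusted p = 0.000497). Its partner BARD1 was lower by 1.56, the nuclease gene EME1 by 1.67 and the recombination cofactor gene PSMC3IP by 1.47. For BRCA1 the 3 arrays of each group lay within a range far narrower than the gap between the groups.

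The pathway that RB belongs to did not move as a block. Of 25 tested regulators of RB and of G1, the target RB1 included, 9 were lower, 5 higher and 11 not called (median -0.11). The higher genes were RB1 itself, RBL2 (0.83 ± 0.14, adjusted p = 0.00470), the CDK inhibitor genes CDKN2A (0.88) and CDKN1A (0.48), and CCND2, cyclin D2, at least 1.19-fold higher. Second probes of CDKN2A (0.31, adjusted p = 0.345) and CDKN1A (0.28, adjusted p = 0.210) were not called. CDKN1A was lost when any array other than siOct4 replicate 1 was left out, with adjusted p up to 0.0849, and CDKN2A was lost without siRb1 replicate 2 or 3 (adjusted p up to 0.0653), which left 3 of the list higher in each of these fits.

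RBL1, the RB relative p107, read 7.43, 6.94 and 6.14 in siOct4 and 8.20, 8.33 and 8.25 in siRb1, a difference of -1.43 ± 0.29 (adjusted p = 0.00988). E2F7, a repressor of the E2F family, was lower by 1.48, SKP2, the ubiquitin ligase subunit that removes the inhibitor p27, by 0.995 and CCNE1, cyclin E1, by 0.76 (adjusted p = 0.0232). The call for CCNE1 was lost without siRb1 replicate 1 or 2 or siOct4 replicate 2 or 3, with adjusted p up to 0.0775. E2F1 read 7.30, 7.92 and 8.65 against 7.68, 7.39 and 8.05 (0.25, adjusted p = 0.612), and CCND1, cyclin D1, read 14.46, 14.48 and 14.01 against 14.39, 14.38 and 14.09 (0.03, adjusted p = 0.925). The groups overlapped for both of these genes. CCNE2 did not pass the detection filter. The list gave 10 lower and 5 higher without siOct4 replicate 1.

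The next sequences are shown because an E2F motif stands close to the start site in each, in promoters of an E2F-driven gene and an RB family gene that were both lower in siOct4. Promoters are windows of 300 bases that span the start of the gene and lie mostly before it, from RefSeq on GRCh38.p14, written 5′ to 3′ on the gene's own strand, with the matched letters in capitals. GINS2 lies on the minus strand at chr16:85688905-85689204 and RBL1 on the minus strand at chr20:37095948-37096247. The matches lie at positions -31 to -24 in GINS2 and -16 to -9 in RBL1 relative to the start.
GINS2: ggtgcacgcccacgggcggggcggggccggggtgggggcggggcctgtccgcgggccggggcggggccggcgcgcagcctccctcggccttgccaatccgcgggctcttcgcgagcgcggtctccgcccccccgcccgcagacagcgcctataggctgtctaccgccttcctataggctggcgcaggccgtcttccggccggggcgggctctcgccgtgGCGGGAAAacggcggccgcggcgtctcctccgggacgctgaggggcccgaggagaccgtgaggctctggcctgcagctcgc
RBL1: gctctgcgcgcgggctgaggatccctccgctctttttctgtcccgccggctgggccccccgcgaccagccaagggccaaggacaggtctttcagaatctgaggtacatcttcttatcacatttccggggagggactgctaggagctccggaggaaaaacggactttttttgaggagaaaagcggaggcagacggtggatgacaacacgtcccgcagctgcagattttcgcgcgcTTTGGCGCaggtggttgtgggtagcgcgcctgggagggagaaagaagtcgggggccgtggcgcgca

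The motif searched was TTTCCCGC or TTTGGCGC on either strand. It was present in 6.16% of 1137 promoters of genes called lower, 2.71% of 1106 promoters of genes called higher and 3.34% of 6130 promoters of genes not called. Among all 27305 promoters in the table the share was 2.27%. Of the 33 E2F-driven G1/S genes with a promoter in the table, 15 held it (45.5%). A match is a string of letters and shows no binding.

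Mitotic genes were lower as well. Of 38 tested genes that peak in G2 and M phase, 33 were lower in siOct4 and 0 higher (median -1.17). For 35 of them the siOct4 arrays all lay below the siRb1 arrays, against 23.1% of all genes tested. PLK1, the polo-like kinase of mitotic entry and spindle assembly, read 8.37, 7.76 and 7.28 in siOct4 and 9.47, 9.50 and 9.45 in siRb1, a difference of -1.67 ± 0.25 (adjusted p = 0.00299). CDK1, the kinase of mitotic entry, read 11.44, 10.45 and 10.85 against 12.25, 12.19 and 12.39 (-1.36 ± 0.24, adjusted p = 0.00543). FOXM1, a transcription factor of mitotic genes, read 8.96, 7.83 and 8.18 against 9.58, 9.79 and 9.56 (-1.33 ± 0.27, adjusted p = 0.00946). In these 3 genes replicate 1 was the highest siOct4 array and remained below every siRb1 array.

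MKI67, the proliferation marker Ki-67, was at least 2.87-fold lower, and CDC25C, the phosphatase that activates CDK1, at least 2.17-fold lower. CCNA2, cyclin A2, was lower by 1.41, CCNB1, cyclin B1, by 0.94 (adjusted p = 0.0238), CDCA2 by 1.95 and the condensin subunit gene NCAPG by 1.75. CCNF, cyclin F, which other cells of the series had silenced, was lower by 1.04 (adjusted p = 0.00891). FAM83D, CKS1B, CKS2, PTTG1 and CDC25B were not called, with differences between -0.94 and 0.03. CCNB1 was lost when siOct4 replicate 3 or any of the siRb1 arrays was left out (adjusted p up to 0.0720). Without siOct4 replicate 1, 34 of the 38 were lower. The control mean lay nearer to siRb1 for 33 of the 33 called genes. It lay between the 2 knockdown means for 19 of them and above both for the others.

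**Figure D3:**
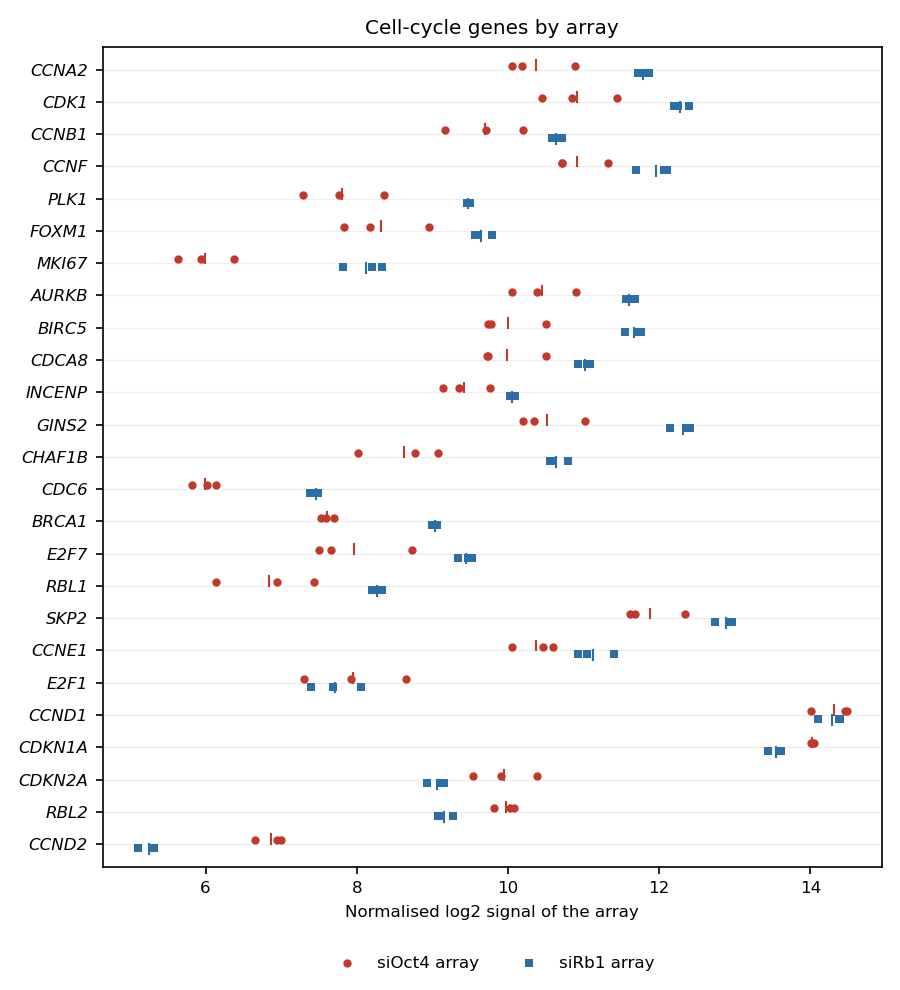
Normalised log2 signal on each array for 25 genes of the cell cycle and the RB pathway. Red circles are siOct4 arrays, blue squares siRb1 arrays and vertical ticks the means of 3 arrays, and the siRb1 arrays lie to the right for the genes from CCNA2 to CCNE1, overlap with siOct4 for E2F1 and CCND1 and lie to the left for the last 4 genes.

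The apparatus of chromosome segregation followed. In the chromosomal passenger complex and its shugoshin partners, 9 of 12 tested genes were lower and 0 higher (median -1.10). BIRC5, the survivin subunit, was lower by 1.67 ± 0.21 (adjusted p = 0.00181), AURKB, the kinase of the complex, by 1.16, CDCA8, borealin, by 1.03 and INCENP, the scaffold, by 0.64 (adjusted p = 0.0309). A second INCENP probe was not called (-0.59, adjusted p = 0.107), and the first was lost when any array other than siOct4 replicate 1 was left out (adjusted p up to 0.0903). SGO1, a protector of centromeric cohesion, was lower by 1.50. Of 30 kinetochore and centromere genes, 24 were lower and 0 higher (median -1.03), among them the NDC80 complex genes SPC25 (-2.22), SPC24 (-1.66) and NUF2 (-1.59) and the centromere gene CENPU (-2.03). SPC25 was detected on 1 and CENPU and NUF2 on 2 of the siOct4 arrays.

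Spindle motors and regulators gave 26 of 32 lower and 0 higher (median -1.07), with 1 higher when the replicate number was a term of the fit. CKAP2L, a spindle protein, was lower by 1.70, the microtubule depolymerase gene KIF2C by 1.55 and the kinesin genes KIF4A and KIF14 by 1.54 and 1.53. Spindle checkpoint and anaphase-promoting complex genes gave 11 of 24 lower and 1 higher (median -0.46, and -0.29 over 26 genes without the filter). CDC20, the activator of the complex (-1.32), UBE2C, its ubiquitin-conjugating enzyme (-1.24), and FBXO5, its inhibitor (-1.34), were lower, as was the checkpoint kinase BUB1 (-1.42). MAD2L1BP, which silences the checkpoint protein MAD2, was higher by 0.96 (adjusted p = 0.00588). Most core subunits of the complex, among them CDC16, CDC23, ANAPC4 and ANAPC5, were not called, with differences between -0.12 and 0.02. Of 25 centriole and centrosome genes, 15 were lower and 0 higher (median -0.64), including the centriole duplication kinase PLK4 (-1.43) and NEK2 (-1.37). Without siOct4 replicate 1, the counts of lower genes were 9, 24, 27, 12 and 17 in the order of these 5 lists.

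The next 3 promoters are shown because each holds a CHR motif and a CCAAT box, in mitotic genes that were lower in siOct4. In CDC25C and PLK1 the CHR motif lies nearer to the start than CCAAT, and in CDK1 it lies farther away. They come from RefSeq on GRCh38.p14, on the gene's own strand, with the matches in capitals. CDC25C lies on the minus strand at chr5:138331755-138332054, with CCAAT (as its reverse complement) at -85 to -81 and CHR at -30 to -25. CDK1 lies on the plus strand at chr10:60778081-60778380, with CHR at -161 to -156 and CCAAT at -150 to -146. PLK1 lies on the plus strand at chr16:23678639-23678938, with CCAAT at -73 to -69 and CHR at -29 to -24.
CDC25C: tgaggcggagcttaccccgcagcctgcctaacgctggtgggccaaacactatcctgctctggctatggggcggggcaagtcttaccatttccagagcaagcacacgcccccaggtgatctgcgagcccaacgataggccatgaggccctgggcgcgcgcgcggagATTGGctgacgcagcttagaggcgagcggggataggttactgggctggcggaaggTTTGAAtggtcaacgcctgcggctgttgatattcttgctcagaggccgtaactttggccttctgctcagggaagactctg
CDK1: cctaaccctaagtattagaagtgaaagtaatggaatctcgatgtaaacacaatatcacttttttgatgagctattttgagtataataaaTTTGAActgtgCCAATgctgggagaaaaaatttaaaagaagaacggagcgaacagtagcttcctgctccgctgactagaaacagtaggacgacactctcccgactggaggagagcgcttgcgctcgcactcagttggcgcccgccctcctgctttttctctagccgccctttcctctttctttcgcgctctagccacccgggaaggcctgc
PLK1: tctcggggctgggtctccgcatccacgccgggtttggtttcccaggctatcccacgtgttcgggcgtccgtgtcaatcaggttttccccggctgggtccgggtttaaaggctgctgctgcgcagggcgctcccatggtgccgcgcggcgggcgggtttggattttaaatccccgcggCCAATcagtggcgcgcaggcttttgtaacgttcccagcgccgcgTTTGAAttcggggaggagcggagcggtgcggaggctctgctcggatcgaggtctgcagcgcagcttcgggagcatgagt

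The CHR motif (TTTGAA on either strand) was found in 14.3% of promoters of genes called lower, 9.86% of those called higher and 9.05% of those not called. Among genes lower by at least 2-fold the share was 22.1% of 349 promoters, and among genes higher by at least 2-fold it was 13.7% of 315. CCAAT on either strand, which is short and common, was found in 41.9%, 35.6% and 36.8% of the promoters of genes lower, higher and not called. Of the 28 G2/M genes with a promoter in the table, 22 held CHR (78.6%) and 21 held CCAAT (75%). Over all 27305 promoters the shares were 15.6% for CHR and 35.6% for CCAAT.

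Cytokine and NF-kB genes moved the other way. NF-kB factors are activated by TNF and other signals and induce cytokines together with their own inhibitors. Of 19 tested genes, 14 were higher in siOct4, 0 lower and 5 not called (median 1.09), against 13.4% higher over all genes. Without the filter the median was 0.82 over 31 genes. Over the 16 genes with a probe detected on all 6 arrays it was 0.90. TNF read 11.08, 11.72 and 11.39 in siOct4 and 8.56, 8.65 and 8.35 in siRb1, a difference of 2.88 ± 0.19 (adjusted p = 0.000271). TNFAIP3, the A20 feedback inhibitor, read 9.17, 10.06 and 9.27 against 6.13, 7.18 and 6.52 (2.89 ± 0.31, adjusted p = 0.000928) and was detected on 1 siRb1 array. No siOct4 array overlapped with a siRb1 array for either gene. IL6 was higher by 2.07, the NF-kB subunit genes RELB by 1.78 and NFKB2 by 1.57, and the inhibitor gene NFKBIA by 1.51. TNIP1, NFKBIE, NFKBIZ, REL and CCL5 were not called, with differences between 0.17 and 0.82. Without siOct4 replicate 1 the count stayed at 14.

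TNFAIP3 is shown as 1 of the 5 genes of this list whose promoter holds a match. It lies on the plus strand at chr6:137867009-137867308 (RefSeq, GRCh38.p14), and the match, in capitals, is on the opposite strand at -66 to -58.
TNFAIP3: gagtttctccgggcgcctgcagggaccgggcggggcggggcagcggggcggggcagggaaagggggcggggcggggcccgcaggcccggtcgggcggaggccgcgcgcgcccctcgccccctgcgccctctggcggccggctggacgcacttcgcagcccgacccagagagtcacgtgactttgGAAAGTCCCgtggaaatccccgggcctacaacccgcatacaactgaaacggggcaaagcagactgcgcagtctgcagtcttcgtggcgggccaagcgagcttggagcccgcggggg

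The letters searched were GGGAATTTC, GGGACTTTC and GGGAAATTC on either strand, and a stretch can match more than 1 of them. They were present in 0.995% of promoters of genes called higher, 0.88% of those called lower and 0.962% of those not called, and in 5 of the 14 promoters of the NF-kB list (35.7%), against 1.03% of all promoters. The AP-1 motif TGACTCA was found in 5.97% of promoters of genes called higher, 2.64% of those called lower, 2.89% of those not called and 5.04% of all promoters.

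Interferon response genes were higher in part. Of 34 tested, 18 were higher, 0 lower and 16 not called (median 0.64, and 0.46 over 44 genes without the filter). Some members, IFI27 and IFIH1 among them, passed the filter through the siOct4 arrays alone. Over the 25 genes with a probe detected on all 6 arrays the median was 0.46. IFIT2, an interferon-induced RNA-binding protein, read 9.06, 10.41 and 10.13 in siOct4 and 7.97, 8.25 and 8.67 in siRb1, a difference of 1.57 ± 0.34 (adjusted p = 0.0128). IRF9, the DNA-binding subunit of the interferon-activated factor ISGF3, read 11.08, 11.77 and 11.69 against 10.06, 9.80 and 9.99 (1.56 ± 0.20, adjusted p = 0.00170). IFI27 was at least 2.86-fold and the RNA sensor gene IFIH1 at least 1.95-fold higher. MX1, ISG15, IFIT1, OAS1, BST2 and IRF1, members of the same response, were not called, with differences between -0.18 and 0.21. The number of higher genes was 11 without siOct4 replicate 2 and 11 without siRb1 replicate 3. It was 21 without siOct4 replicate 1, with 1 lower, and with the replicate number as a term of the fit 1 gene was lower too. For 18 of the 18 higher genes the control mean lay nearer to siRb1. It lay between the 2 knockdown means for 2 of them and below both for the others.

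IFI27 is shown for its matches to ISRE, the element bound by ISGF3 and the IRF factors. It lies on the plus strand at chr14:94110486-94110785 (RefSeq, GRCh38.p14), with matches at -107 to -99, on the opposite strand, and at -95 to -87.
IFI27: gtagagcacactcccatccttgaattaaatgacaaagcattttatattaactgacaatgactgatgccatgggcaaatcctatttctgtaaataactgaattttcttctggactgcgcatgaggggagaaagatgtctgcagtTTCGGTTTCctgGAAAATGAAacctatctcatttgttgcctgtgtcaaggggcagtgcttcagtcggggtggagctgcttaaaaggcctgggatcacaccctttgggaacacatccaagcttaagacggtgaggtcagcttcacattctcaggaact

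The letters searched were GAAANNGAA on either strand. They were present in 7.87% of promoters of genes called higher, 5.19% of those called lower and 6.07% of those not called, and in 20 of the 29 promoters of the interferon list (69%), against 8.28% of all promoters.

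Genes of antigen presentation gave 13 of 19 higher and 0 lower (median 0.91, and 0.76 over 24 genes without the filter). Some members, PSMB9 and BTN3A2 among them, passed the filter through the siOct4 arrays alone. Over the 14 genes with a probe detected on all 6 arrays the median was 0.86. The count of 13 was the same without siOct4 replicate 1. For 13 of the 13 higher genes the control mean lay nearer to siRb1, and for 0 of them between the 2 knockdown means. HLA-B, a class I heavy chain, read 11.22, 12.07 and 11.77 in siOct4 and 9.57, 9.49 and 9.04 in siRb1, a difference of 2.32 ± 0.24 (adjusted p = 0.000758). The peptide transporter genes TAP1 and TAP2 were higher by 1.08 and 1.20, their partner TAPBP by 1.26 and B2M, the light chain, by 0.91 (adjusted p = 0.0131). PSMB9, a subunit of the immunoproteasome, was at least 1.97-fold and BTN3A2 at least 3.15-fold higher. A second B2M probe (0.48, adjusted p = 0.0735) and a second HLA-F probe (0.67, adjusted p = 0.15) were not called, and class I genes are similar enough in sequence that a probe may read several of them.

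Leukocyte markers were set beside these immune lists. Their summed log2 level was 11.71 to 12.25 on the siOct4 arrays and 10.93 to 11.13 on the siRb1 arrays. PTPRC, CD3D, CD3E, CD14, LYZ and ITGAM were undetected on all 6 arrays, and CSF1R was detected on 2 siOct4 arrays only. CD68, a lysosomal protein of macrophages and other cells, was the tested member, higher by 1.08 ± 0.18 (adjusted p = 0.00445), as was a second probe (1.02, adjusted p = 0.00616), while the third was not called (-0.15, adjusted p = 0.700).

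Of 24 histone genes tested, 10 were higher, 4 lower and 10 not called (median 0.84, and 0.60 over 31 genes without the filter). The share higher was 41.7%, against 13.4% over all genes. The share lower was 16.7%, near the 13.5% over all genes. The 10 higher genes were clustered ones, as were H4C3, called lower, and several that were not called. H2AC6 read 10.69, 11.95 and 11.98 in siOct4 and 8.82, 8.19 and 9.31 in siRb1, a difference of 2.77 ± 0.39 (adjusted p = 0.00245), H4C8 was higher by 2.86, H2BC5 by 2.66 and H2AC18 by 2.25. Of the 4 lower genes, H2AZ1 (-0.60), H2AZ2 (-0.97) and MACROH2A1 (-0.81) encode variant histones expressed outside S phase, and H4C3 (-0.97) is a clustered gene. A second probe of MACROH2A1 was called lower (-0.87, adjusted p = 0.00335), and the third was not called (0.16, adjusted p = 0.533). Clustered histone genes are near-identical copies, so a probe may read several of them. Without siOct4 replicate 1, which lay nearest to siRb1 for 13 of the 14 called genes, 16 were higher and 6 lower. With the replicate number as a term of the fit 15 were higher and 6 lower.

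H2AC6 is shown because its promoter holds both elements usual in clustered histone genes, the octamer that POU-domain factors bind and a TATA box. It lies on the plus strand at chr6:26123922-26124221 (RefSeq, GRCh38.p14), with ATGCAAAT at -130 to -123 and TATAAA at -31 to -26.
H2AC6: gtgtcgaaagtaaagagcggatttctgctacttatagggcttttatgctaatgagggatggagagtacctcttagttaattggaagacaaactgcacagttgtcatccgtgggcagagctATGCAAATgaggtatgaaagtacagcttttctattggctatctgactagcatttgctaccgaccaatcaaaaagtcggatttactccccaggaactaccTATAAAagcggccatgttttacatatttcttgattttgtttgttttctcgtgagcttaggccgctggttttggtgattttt

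ATGCAAAT on either strand was present in 2.17% of promoters of genes called higher, 1.06% of those called lower, 1.31% of those not called and 1.82% of all promoters. Histone genes held it in 10 of 23 promoters (43.5%) and TATAAA in 17 (73.9%). TATAAA was present in 10.8% of promoters of genes called higher, 4.31% of those called lower and 5.2% of those not called. At a difference of at least 2-fold it was present in 18.1% of the 315 promoters of higher genes and 6.88% of the 349 of lower genes. Over all promoters its share was 12.1%.

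**Figure D4:**
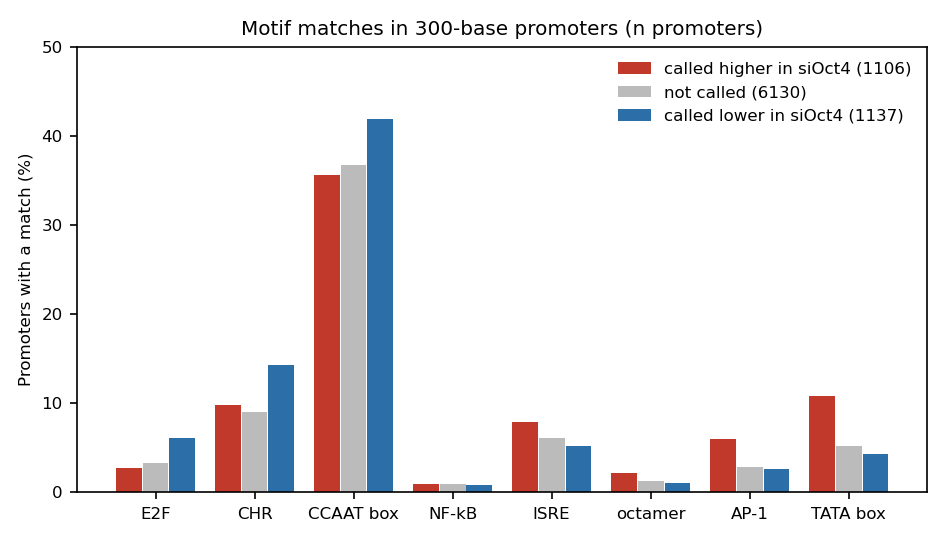
Percentage of 300-base promoters with at least 1 match to each motif, for genes called higher in siOct4 (red, 1106 promoters), not called (grey, 6130) and called lower (blue, 1137). E2F and CHR matches were most frequent among genes called lower, and AP-1 and TATAAA matches among genes called higher.

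Of 11 pluripotency genes tested, the target POU5F1 included, 2 were higher, 2 lower and 7 not called (median 0.13). Without the filter on detection the median over 21 genes was -0.0087. SOX2, the usual partner of OCT4, read 7.08, 7.85 and 7.21 in siOct4 and was undetected in siRb1 at 5.46, 5.57 and 5.86, at least 1.70-fold higher (adjusted p = 0.00162). PROM1, the stem cell surface protein CD133, was higher by 1.51 (adjusted p = 0.00202). DNMT3B, a de novo DNA methyltransferase, was the lower gene beside POU5F1, by 1.13, and its 3 other probes were called lower as well. KLF4 was not called (0.37, adjusted p = 0.112), and NANOG and LIN28A did not pass the detection filter.

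Barrier genes of squamous epithelia gave 8 of 12 higher and 0 lower (median 0.93), a count that was also 8 without siOct4 replicate 1, with 1 lower when the replicate number was a term. Only 12 of the 34 genes with a probe passed the filter, some of them through the siOct4 arrays alone, and over all 34 the median was 0.0887. The list was chosen with earlier results of these data known, so its count is a description. Of the genes called, 3 of the 8 (FLG, PI3 and SLPI) stand among the largest differences above. CEACAM1, a cell adhesion molecule, was at least 4.02-fold higher, with an adjusted p of 0.00108. SGPP2, a sphingosine phosphatase, was higher by 2.999. DSC2, KRT13, TGM1 and SPRR1A were not called.

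Epithelial adhesion genes gave 5 of 18 higher and 1 lower (median 0.17, and 0.11 over 29 genes without the filter). The lower gene was CDH1, E-cadherin, at 7.32, 7.47 and 7.55 in siOct4 and 9.06, 8.92 and 8.87 in siRb1, a difference of -1.51 ± 0.13 (adjusted p = 0.000522). On the scale of the 12 arrays normalised together, the means were 10.54 in control, 8.96 in siRb1 and 7.44 in siOct4. KRT7, a keratin of simple epithelia, was higher by 2.07 ± 0.33 and OVOL2, an epithelial transcription factor, by 1.24. EPCAM, CLDN3, DSP and CTNNB1 were not called. The number of higher genes was 3 without siOct4 replicate 2 and 2 without siRb1 replicate 3, fits in which KRT19 lost its call (adjusted p up to 0.0817).

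Among 13 mesenchymal and contractile genes, 5 were higher and 1 lower (median 0.15, and 0.0154 over 27 genes without the filter). MYL9, a myosin light chain, read 10.17, 10.48 and 10.80 in siOct4 and 8.11, 8.01 and 8.36 in siRb1, a difference of 2.32 ± 0.19 (adjusted p = 0.000397). The actin gene ACTA2 was higher by 1.58, TAGLN by 1.19 and TPM2 by 0.85. COL4A1, the lower gene (-0.45, adjusted p = 0.0472), lost its call without any array other than siOct4 replicate 1 (adjusted p up to 0.130). Fibroblast markers were at or near the detection limit, with summed log2 levels of 8.73 to 9.14 in siOct4 and 8.61 to 8.80 in siRb1, and COL1A2, COL3A1, DCN, LUM, PDGFRB, FAP and THY1 undetected on all 6 arrays. PDGFRA was detected on 2 siOct4 arrays and no siRb1 array, with mean log2 signals of 6.74 and 5.49.

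Targets of ATF4, the transcription factor of the amino acid stress response, gave 17 of 26 higher and 0 lower (median 0.72). Over the 22 genes with a probe detected on all 6 arrays the median was 0.64. SLC7A11, the cystine transporter, read 8.61, 9.23 and 9.40 in siOct4 and 6.75, 5.91 and 6.20 in siRb1, a difference of 2.80 ± 0.27 (adjusted p = 0.000616), with detection on 1 siRb1 array. ASNS, asparagine synthetase, read 13.56, 14.17 and 13.90 against 11.80, 11.89 and 12.11 (1.94 ± 0.18, adjusted p = 0.000569). A second ASNS probe gave 2.0. STC2 was higher by 1.82 and the glutathione-degrading enzyme gene CHAC1 at least 1.30-fold. DDIT3, ATF3 and ATF5, transcription factors of the same response, were not called (differences of 0.35, 0.69 and 0.15). The count was 18 without siOct4 replicate 1, and 11 without siOct4 replicate 3 or without siRb1 replicate 1.

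Of 21 chaperones of the endoplasmic reticulum and other genes of the unfolded protein response, 8 were lower, 2 higher and 11 not called (median -0.37). The median was -0.21 without siRb1 replicate 2, -0.18 without background correction and -0.12 over 23 genes without the filter. HSP90B1, the chaperone GRP94, read 14.17, 14.11 and 13.87 in siOct4 and 14.94, 15.00 and 15.00 in siRb1, a difference of -0.93 ± 0.13 (adjusted p = 0.00275). CRELD2 (-0.84), SDF2L1 (-0.78) and MANF (-0.73) were lower too. HSPA5, the chaperone BiP, was not called (-0.04, adjusted p = 0.919). In 8 of the 10 called genes the control mean lay nearer to siOct4, unlike most genes called: HSP90B1 stood at 14.42 in control, 14.06 in siOct4 and 14.97 in siRb1 after normalising all 12 arrays together. The count of lower genes was 5 without siRb1 replicate 3, and XBP1 (0.56) and EDEM1 (0.55), the higher genes, each lost their call in 2 or 3 fits that left out 1 array, neither being called without siOct4 replicate 2 (adjusted p up to 0.0604 and 0.0756).

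Genes of the oxidative stress factor NRF2 gave 6 of 19 higher and 1 lower (median 0.39). HMOX1, heme oxygenase, read 11.65, 12.70 and 12.77 in siOct4 and 9.74, 9.72 and 10.16 in siRb1, a difference of 2.50 ± 0.30 (adjusted p = 0.00129). NQO1, a quinone reductase, was higher by 1.05, while TXNRD1, TXN and ME1, other targets of NRF2, were not called (0.02, -0.05 and 0.00). The count of higher genes was 3 without siOct4 replicate 2 or 3 or without siRb1 replicate 2 or 3. AKR1B10, an aldo-keto reductase and the lower gene (at least 1.47-fold), lost its call without siRb1 replicate 2 or 3 or siOct4 replicate 3 (adjusted p up to 0.0817). Of 26 hypoxia and glycolysis genes, 6 were higher and 0 lower (median 0.25), led by ADM, adrenomedullin (1.74 ± 0.18, adjusted p = 0.000722), and NDRG1 (1.37). LDHA, ENO1, GAPDH and SLC2A1, glycolytic genes of the list, were not called.

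Among 24 p53 targets and death receptor genes, 6 were higher and 2 lower (median 0.07, and -0.0373 over 25 genes without the filter), or 7 and 3 with the replicate number as a term. TNFRSF10B, the TRAIL receptor DR5, read 12.46, 12.89 and 12.47 in siOct4 and 11.68, 11.55 and 11.40 in siRb1 (1.06 ± 0.17, adjusted p = 0.00358). MDM2, BAX and GADD45A, targets of p53, were not called (-0.11, -0.16 and -0.24). Leaving out siOct4 replicate 2 or 3 left 3 higher, and the 2 lower genes, FAS (-0.54) and PPM1D (-0.58), were both lost without siRb1 replicate 1 or 3 or without siOct4 replicate 2. Of 20 apoptosis regulators, 4 were higher and 1 lower (median 0.21, and 0.0583 over 26 genes without the filter), with CASP4, an inflammatory caspase, higher by 1.32 ± 0.16 (adjusted p = 0.00148) and CYCS, cytochrome c, lower by 0.74.

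**Figure D5:**
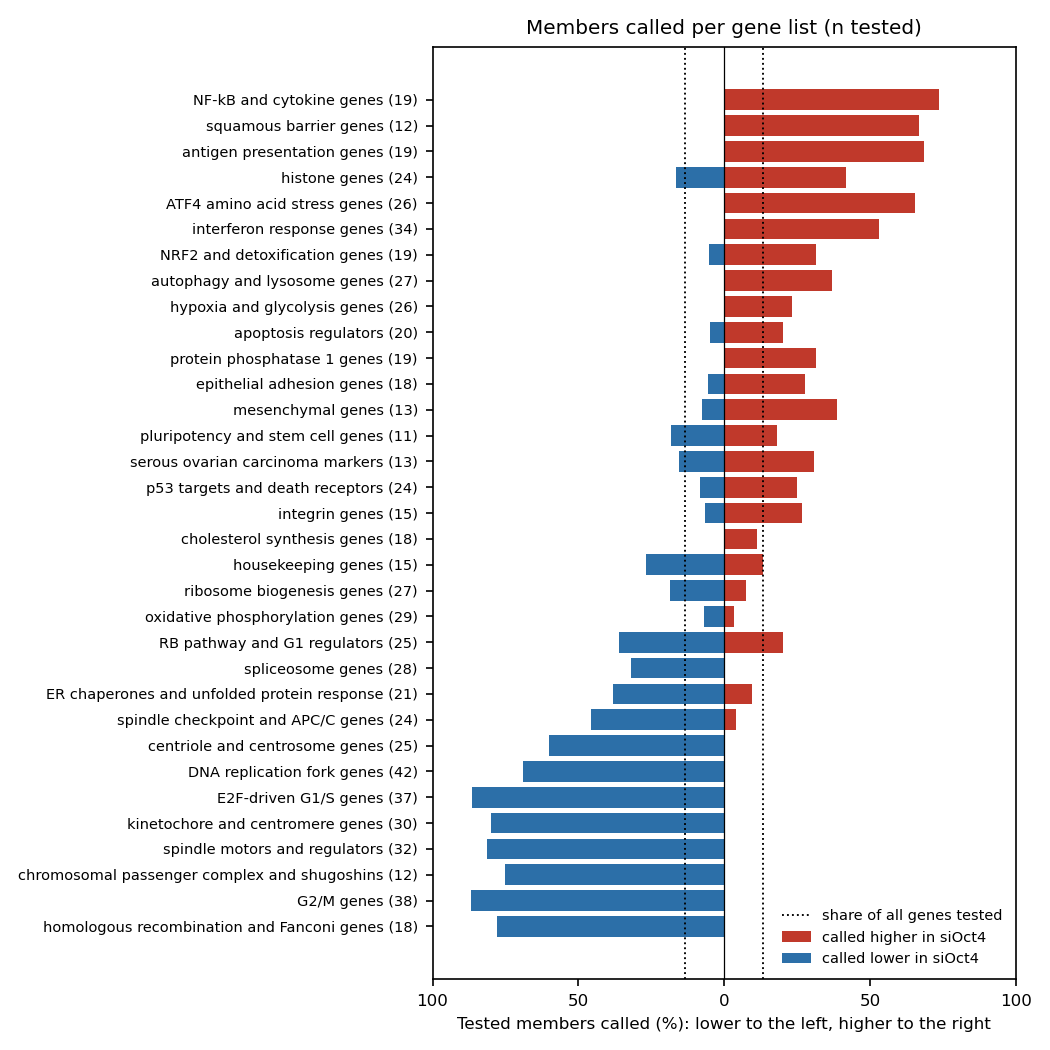
Percentage of the tested members of 33 gene lists called higher (red, to the right) or lower (blue, to the left) in siOct4 relative to siRb1, ordered by median difference. Dotted lines mark the shares over all genes tested, 13.4% higher and 13.5% lower, and the number after each name is the number of members tested.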

How the data were processed

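Biotin-labelled total RNA was hybridised to Illumina bead arrays, and the arrays were read in GenomeStudio per the submitters' processing notes, which name no version. For each probe and array the authors deposited an average signal intensity with its detection p-value, per the file headers. The values showed a linear scale and no subtraction of background. Normalized intensities that the authors deposited too, by a method not named, served as an alternative. The platform annotation pairs 30102 of the 47322 probes with exactly 1 gene, 8 with several and 17212 with none. The human reference gene table held 30063 of those 30102 and changed 0 symbols. The files name no genome build, and promoters come from RefSeq (8373 of the 10326 genes tested matched by symbol).

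The neqc function of limma 3.58.1 (R 4.3.3) normalised the 6 arrays: background estimated with the detection p-values was corrected for, 16 was added, quantiles were made equal and log2 was taken. Probes with detection p under 0.01 on at least 3 of the 6 arrays were fitted with lmFit and eBayes (4 residual and 4.27 prior degrees of freedom). Two-sided p-values were adjusted by Benjamini-Hochberg over all 17090 probes tested, of which 13588 have a gene. A gene was called at an adjusted p under 0.05. Precision is limited by the number of arrays, 3 in each group. The fit was tested on simulated data. Motifs and figures were computed in Python 3.11.15. Matches of different motifs may overlap.

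The members and lists were chosen with earlier results of these data known. Named genes were both targets, the 12 largest differences in each direction among called genes whose groups did not overlap, genes marked as key in the lists, and up to 4 called genes per list and direction with the largest difference. Other genes of a list were named after their values were seen, to account for members that were not called.

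Deviations of same-numbered siOct4 and siRb1 arrays from their group means correlated at 0.112, 0.194 and 0.397. The numbers in the labels, which do not state pairing, were therefore taken to pair the samples in an alternative fit. The main fit is unpaired, and its values are the ones given unless the replicate number is named. The fit with the replicate number as a block is given where it changes the call of a named gene, takes a list's count up from 0 or moves a count by 1.5 times.

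Alternatives were other background corrections and scalings, the deposited normalized values, an offset of 50, other filters, a model of all 12 arrays, an intensity trend, the replicate block, another probe or the mean of a gene's probes, a fold threshold and leaving out each array.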

Additional observations from a re-analysis of the deposited data

How the results depend on the processing

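Of 178 named genes other than the targets, 143 kept their direction and their side of the threshold in each of the 16 refits of their own probe that could read them, 33 lost their call in at least 1, and 2 that were not called, E2F1 and CCND1, changed sign. Leaving out 1 array, E2F1 gave -0.0985 (without siOct4 replicate 3) to 0.573 (without siOct4 replicate 1). CCND1 gave -0.0706 (without siRb1 replicate 3) to 0.181 (without siOct4 replicate 3), with -0.0456 and -0.0535 without siOct4 replicates 1 and 2. The other probe of POU5F1 gave 0.49 (adjusted p = 0.0539), against -6.03 for the main probe, and the mean of both probes -2.77; the cause was not tested. Of the 175 of these genes that were called, 61 missed the fold threshold of 2, 6 lost their call with the mean of a gene's probes, and 37 of the 52 with another tested probe had all such probes called in the same direction. With a fold threshold of 2, fewer features qualify by construction: 1324 probes were called, 673 higher and 651 lower, and 845 genes, 414 higher and 431 lower. Leaving out 1 array, which reduces the samples, gave 2595 to 4513 probes called (1322 to 2138 higher, 1273 to 2375 lower; 4302 with all arrays, 2163 higher and 2139 lower) and 1653 to 2883 genes (814 to 1337 higher, 839 to 1546 lower). The count of genes lower fell to 911 without siRb1 replicate 2, 903 without siOct4 replicate 2 and 892 without siRb1 replicate 1. All other alternatives gave 2009 genes (no filter on dim probes) to 3409 (model of all 12 arrays), with 46.4 to 51.9% of calls higher over all settings. No scaling moved the median over all genes by more than 0.1. Quantile and median scaling themselves set that median near 0, so its stability is no check on them. With the replicate block 3245 genes were called, 2697 of them shared with the fit without it. Among named genes the block changed the calls of ITGA3 (0.47, adjusted p = 0.0537) and MSLN (-0.61, adjusted p = 0.0521) and no other. FAS was also not called with the deposited normalized values, without background correction or with an intensity trend. Signal near background limits 209 called genes to a bound.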

Other observations

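Further gene groups were measured in the same comparison. Autophagy and lysosome genes gave 10 of 27 higher in siOct4 and 0 lower (median log2 difference 0.36), led by the phosphoinositide-binding autophagy gene WIPI2 at 9.96, 10.47 and 10.15 in siOct4 and 8.93, 8.92 and 8.90 in siRb1 (1.28 ± 0.16, adjusted p = 0.00151). That count is 3 to 5 when any array other than siOct4 replicate 1 is left out, and 1 gene was lower with the replicate block. Protein phosphatase 1 genes gave 6 of 19 higher and 0 lower (median 0.19, and 0.11 over 22 genes without the filter on detection), and 8 higher and 1 lower under the block. PPP1R1A, an inhibitor subunit, read 8.80, 9.28 and 8.65 against 6.22, 6.01 and 5.82, at least 4.91-fold higher (adjusted p = 0.000271), and the catalytic subunit genes PPP1CA, PPP1CB and PPP1CC were not called. PPP1R8 is not analysed here. A list of integrin genes that also holds ITGB1BP1, the gene of an integrin-binding protein, gave 4 of 15 higher and 1 lower (median 0.06). ITGAV was higher by 1.30, ITGB2 by 1.24 and ITGA2 by 1.18. The lower gene, ITGB1BP1 (-0.47), lost its call when any array other than siOct4 replicate 1 was left out (adjusted p up to 0.130).

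Spliceosome genes gave 9 of 28 lower and 0 higher (median -0.30), a count that is 2 without siRb1 replicate 3 and 4 without any of 4 other arrays. The helicase gene SNRNP200 was lower by 1.01 ± 0.20 (adjusted p = 0.00967), and its second probe by 0.84. Ribosome biogenesis genes gave 2 of 27 higher and 5 lower (median -0.05), and leaving out 1 array left 0 to 6 of them lower. Oxidative phosphorylation genes gave 1 of 29 higher and 2 lower (median -0.07), and cholesterol synthesis genes 2 of 18 higher and 0 lower (median 0.06). Serous carcinoma markers gave 4 of 13 higher and 2 lower (median 0.0977, and -0.0186 over 20 genes without the filter), with CRABP2, a retinoic acid carrier, higher by 1.08, and with 1 lower under the block. Among 15 genes often used as references, 2 were higher and 4 lower (median -0.03), with YWHAZ at -1.02 and RPL13A at -0.88, while GAPDH, ACTB and TBP were not called. Among endothelial markers VWF was lower (-0.62, adjusted p = 0.0169), a call lost without siRb1 replicate 1 or 3 or siOct4 replicate 3 (adjusted p up to 0.0631), and 1 of the 9 fibroblast markers was tested and not called.

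Of the 3502 tested probes without a gene in the platform annotation, 703 were called, among them 204 with a difference of 2-fold or more. Among 2637 genes with more than 1 tested probe, 399 had all of them called in the same direction, and for 5 called genes another probe was called in the opposite direction.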
